A study of Mus musculus with 14 samples.

Results

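Bone marrow-derived dendritic cells that had received only the solvent dimethyl sulfoxide (DMSO) were compared with and without tumour necrosis factor alpha (TNF). The comparison was chosen by sample label and covers 4 of the 14 arrays of the series, 2 from solvent-treated cells without stimulus and 2 from solvent-treated cells given TNF. The arrays were paired by replicate number, which stands for 2 independent experiments. The cells came from marrow progenitors of BALB/c mice grown for 8 days in recombinant GM-CSF (granulocyte-macrophage colony-stimulating factor), with feedings on days 3 and 6. Both groups then received 0.01% DMSO for 1 h, and the TNF group received TNF at 500 U/mL. How long TNF acted before harvest and the age and number of the mice were not stated in the labels. The remaining 10 arrays hold cells given 5 µM CA074Me, which inhibits cathepsin B, or 5 µM CLIK148, which inhibits cathepsin L, alone or with a stimulus, and solvent-treated cells given CpG oligonucleotide at 25 µg/mL. They entered the same model, and the CA074Me arrays with and without TNF gave the same comparison in 4 further arrays. The labels name TNF as a stimulus that favours T helper 2 (Th2) responses and CpG as one that favours T helper 1 (Th1) responses.

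TNF binds the receptors TNFR1 and TNFR2, whose adaptor complexes of TRADD, TRAF and cIAP proteins activate the IKK kinases. IKK releases the transcription factor NF-kB from its IkB inhibitors, and NF-kB switches on chemokines, adhesion molecules, survival genes and its own inhibitors. In dendritic cells TNF is a classical maturation signal: maturing cells lower antigen uptake, raise costimulatory molecules and migrate from tissue to lymph node.

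Markers of dendritic cells were present on the 4 arrays. Of 17 such genes measured, 16 lay above the overall median of 7.52 log2 on every one of the 4 arrays, and Xcr1, a marker of cross-presenting dendritic cells, lay below it. Itgax, which encodes CD11c, read 12.08 and 11.21 in solvent and 11.72 and 11.14 with TNF in experiments 1 and 2. Genes listed as markers of other cells were bright too: 13 of 14 for macrophages and monocytes and 16 of 16 for granulocytes exceeded the median on the 4 arrays. For comparison, 12172 of 18193 genes exceeded it on at least 2 of the 14 arrays. Whether these transcripts came from other cells or from the dendritic cells was not tested. The neutrophil gene S100a8, for example, read 14.86 and 14.78 in solvent and 15.01 and 14.72 with TNF. The mean level of the macrophage list was 10.96 to 11.53 in solvent and 10.69 to 11.02 with TNF, and that of the granulocyte list 11.32 to 11.58 and 11.36 to 11.82. Of 13 lymphocyte and plasmacytoid markers 6 exceeded the median on the 4 arrays, and of 12 erythroid and stromal markers 3 did. In RNA from a whole culture, fewer cells of a type and less RNA per cell cannot be told apart. The profiles of the 2 solvent arrays correlated with r = 0.984 and those of the 2 TNF arrays with r = 0.978 over genes.

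TNF was followed by more falls than rises, most of them below 2-fold. Of 12172 genes tested, 379 (3.11%) changed at an adjusted p under 0.05 in limma with the experiment as a block, 139 (1.14%) higher and 240 (1.97%) lower. Among these, 12 rose and 27 fell by at least 2-fold. The largest rise was that of the chemokine gene Ccl1 and the largest fall that of the adhesion gene Cdh1. The share of higher genes depended on scaling: it was 36.7% of calls in the deposited values, 48.4% of 403 calls after cyclic loess and 64.3% of 252 calls after scaling to 9 reference genes. The median change of all genes was -0.05 log2 in the deposited values, 0.05 with reference scaling and -0.00 with loess, so changes are to be read relative to these shifts. All 379 kept their sign under both scalings, and 322 and 214 of them were called again with loess and reference scaling.

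The differences between TNF and solvent arrays were larger in experiment 1. Each experiment held 1 array per group, so whether the response itself differed between experiments was not tested. Over all tested genes the change had a standard deviation of 0.305 log2 in the first experiment and 0.192 in the second. The changes of the 2 experiments correlated with r = 0.714 across genes, which are not independent replicates. Of all tested genes, 37.4% lay above 0 in the mean of both. All 379 called genes moved the same way in both experiments, against 70.8% of tested genes, and the fit that called them used both experiments. Of the 379, 287 changed more in experiment 1, with a median size of 0.63 log2 against 0.48 in experiment 2. The TNF and solvent arrays did not overlap for 309 of the 379, against 40.5% of tested genes.

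**Figure D1:**
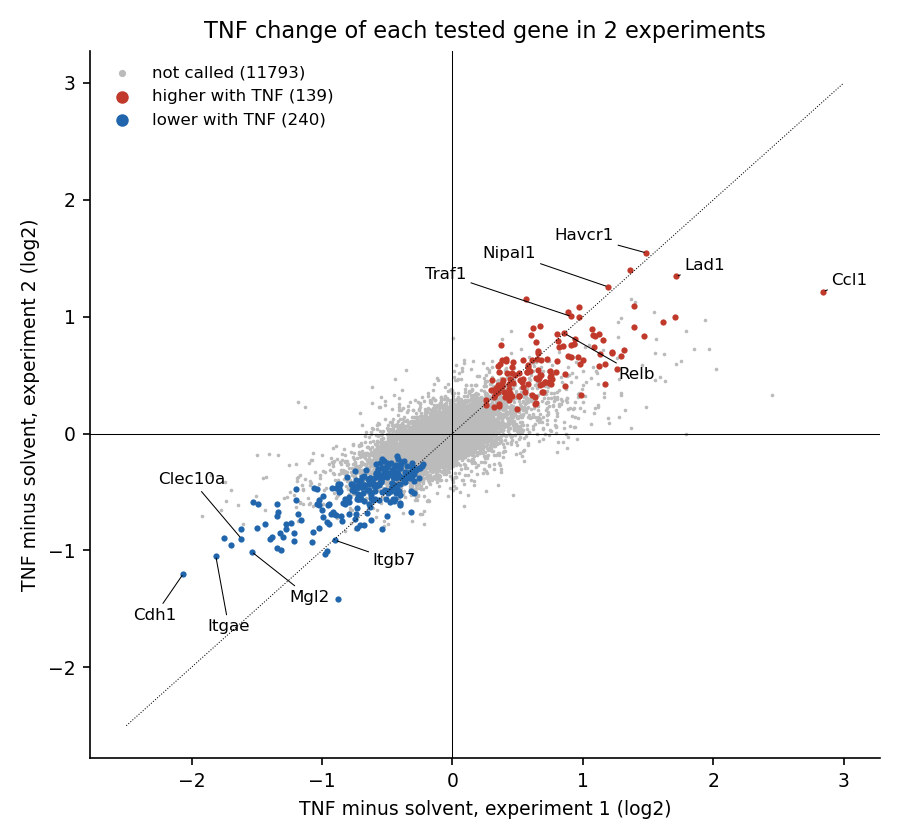
Change with TNF in experiment 1 (horizontal axis) and experiment 2 (vertical axis), in log2 units, for each of 12172 tested genes. Red points are the 139 genes called higher, blue points the 240 called lower and grey points those not called. The dotted line marks equal change. Ccl1 lies at 2.84 and 1.22, far to the right of that line, and 287 of the 379 called genes changed more in experiment 1.

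How many genes passed depended on the model. Without the block 14 genes (0.115%) passed, all among the 379: 10 rose, among them Lad1, Nipal1, Cyria, Relb and Rhoc, and 4 fell, namely Mgl2, Itgb7, Pgm2l1 and Arhgap15. A fit to the 4 compared arrays alone called 358, one without the CpG-stimulated groups 2179, and one of the 3 solvent groups alone 0 (1538 at an unadjusted p under 0.05). In that order these fits left 1, 4 and 2 residual degrees of freedom. With either solvent array left out 0 genes passed (1166 without that of experiment 1 and 2212 without that of experiment 2 had an unadjusted p under 0.05). The count was 2 without the TNF array of experiment 1 and 198 without that of experiment 2. In those fits the lone array of a group is assumed to vary like the other groups. Of the genes named below, Ccl1, Nfkb2, Bcl3, Tnfaip2, Ccr1, Ccl22, Tnfsf13b, Bid, Mcm6, Slc2a6 and Ccr9 lost their call with only the 4 compared arrays. Over all probe sets Timd4, Ptpn22, Nfkb2, Plau, Ccl22, Tnfsf13b, Casp6, Bid and Mcm6 lost theirs. Calls below are those of the blocked fit, and changes are log2 differences ± SE with n = 2 arrays per group.

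Among the TNF receptors and their proximal signalling genes Birc2 was called. It was 1 riser of 26 tested genes with 0 falls, where 1.14% of all tested genes rose and 1.97% fell, so the share is near the background. The median change was 0.12 log2 against -0.05 over all genes. Birc2 encodes cIAP1, a ubiquitin ligase of the TNF receptor complex, and it read 11.15 and 11.42 in solvent and 11.69 and 12.05 with TNF. Both TNF values lay above both solvent values, a rise of 0.59 ± 0.10 log2 or 1.50-fold (adjusted p = 0.0242, and 0.475 without the block). Tnfrsf1a, which encodes TNFR1, read 11.50 and 11.30 in solvent and 11.15 and 10.93 with TNF, a change of -0.36 ± 0.11 (adjusted p = 0.105). Tnfrsf1b, which encodes TNFR2, changed by 0.38 ± 0.13 (adjusted p = 0.153) and Tnf itself by 0.54 ± 0.48 (adjusted p = 0.552). None of these 3 passed in the main fit. Tnfrsf1a and Tnfrsf1b passed without the CpG-stimulated groups (adjusted p = 0.0472 and 0.00899) and with array weights (0.044 and 0.022). Neither passed without the block (0.778 and 0.836). For Tnf the arrays overlapped, at 10.70 and 9.77 in solvent and 11.53 and 10.02 with TNF. Cflar, which encodes the caspase-8 inhibitor FLIP, was the highest member of the list at 0.63 log2 but did not pass (adjusted p = 0.118).

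The NF-kB subunits of the noncanonical pathway rose. Relb, which encodes the transactivating partner of p52, read 11.19 and 10.95 in solvent and 12.04 and 11.80 with TNF. The rise was the same in both experiments, 0.86 ± 0.07 log2 or 1.81-fold (adjusted p = 0.00288, and 0.0493 without the block). Nfkb2, which encodes p100, the precursor of p52, read 9.81 and 9.69 in solvent and 10.35 and 10.09 with TNF. That rise was 0.47 ± 0.10 log2 (adjusted p = 0.04, 0.0577 with reference scaling and 0.338 without the block). Of the canonical subunits, Rel was 0.63 ± 0.20 log2 and Rela 0.19 ± 0.06 log2 above solvent, and neither passed (adjusted p = 0.121 and 0.118). With 2 of 4 tested subunits called, against 3.11% of all tested genes, the list had a median of 0.55 log2.

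Feedback regulators of NF-kB gave 2 calls in 14 tested, both rises, with a list median of 0.26 log2, where 1.14% of all tested genes rose. Traf1, an adaptor of TNF receptor family members, read 11.38 and 11.40 in solvent and 12.29 and 12.40 with TNF. The replicates of each group lay close together and apart from the other group, a rise of 0.96 ± 0.16 log2 or 1.94-fold (adjusted p = 0.02, and 0.0957 without the block). Bcl3, a nuclear IkB protein, rose by 0.51 ± 0.09 log2 (adjusted p = 0.0218, and 0.444 without the block). The classical feedback inhibitors did not pass in the main fit: Nfkbia, which encodes IkB alpha, was at 0.23 ± 0.06 log2 (adjusted p = 0.0874) and Tnfaip3, which encodes the deubiquitinase A20, at 0.52 ± 0.20 (adjusted p = 0.177). Both passed without the CpG-stimulated groups (adjusted p = 0.0315 and 0.0286) and with array weights (0.0196 and 0.0351). Neither passed without the block (0.83 and 0.691). Of 19 other NF-kB targets, Icam1, an adhesion ligand for leukocyte integrins, rose by 0.57 ± 0.12 log2 (adjusted p = 0.0373) and Tnfaip2 by 0.41 ± 0.07 (adjusted p = 0.0184). Plau, which encodes the protease urokinase, fell by 0.48 log2 (SE 0.10, adjusted p = 0.045), a call lost with reference scaling. The list's median was 0.41 log2, and Icam1, Tnfaip2 and Plau did not pass without the block.

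Among the chemokines Ccl1 and Ccl22 rose. Ccl1, a ligand of CCR8, read 8.66 and 8.44 in solvent and 11.50 and 9.66 with TNF. Both TNF arrays exceeded both solvent arrays, by 2.84 log2 in experiment 1 and 1.22 in experiment 2. The mean rise of 2.03 ± 0.38 log2, or 4.08-fold, had an adjusted p of 0.0288 (0.42 without the block, and 0.0594 with only the 4 compared arrays). Ccl22, a CCR4 ligand, read 13.74 and 13.91 in solvent and 14.86 and 14.48 with TNF. It rose by 0.85 ± 0.18 log2 or 1.80-fold (adjusted p = 0.0419, 0.0519 with only the 4 compared arrays and 0.235 without the block). The other CCR4 ligand gene, Ccl17, read 14.51 and 14.34 in solvent and 14.92 and 14.70 with TNF, so that the groups did not overlap, at 0.39 ± 0.10 log2 (adjusted p = 0.0752). Ccl17 passed without the CpG-stimulated groups (adjusted p = 0.0241), with array weights (0.0159) and with reference scaling (0.0496), but not without the block (0.4). Of 26 chemokines tested 2 rose and 0 fell, against 1.14% and 1.97% of all tested genes, with a median of 0.32 log2 and a range from -0.65 to 2.03.

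Promoter sequences are shown for the called rising genes of the NF-kB subunit, feedback and chemokine lists other than Relb, and for Lad1, which had the smallest adjusted p among the named rises. They are the 250 bases before the annotated start of each gene, taken from RefSeq on mouse build GRCm38.p6 and written in the gene's own direction. Capitals mark matches to the κB consensus, the site bound by NF-kB dimers, which was searched by script on both strands. The windows are chr11:82179813-82180062 (minus strand) for Ccl1, chr2:34961773-34962022 (minus) for Traf1, chr8:94745434-94745683 (plus) for Ccl22, chr7:19822756-19823005 (minus) for Bcl3, chr19:46304487-46304736 (plus) for Nfkb2 and chr1:135818348-135818597 (plus) for Lad1.
Ccl1: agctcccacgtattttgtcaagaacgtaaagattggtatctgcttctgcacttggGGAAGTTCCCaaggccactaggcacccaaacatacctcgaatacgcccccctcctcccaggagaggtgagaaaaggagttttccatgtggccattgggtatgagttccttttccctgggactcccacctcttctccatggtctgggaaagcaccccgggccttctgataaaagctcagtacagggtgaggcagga
Traf1: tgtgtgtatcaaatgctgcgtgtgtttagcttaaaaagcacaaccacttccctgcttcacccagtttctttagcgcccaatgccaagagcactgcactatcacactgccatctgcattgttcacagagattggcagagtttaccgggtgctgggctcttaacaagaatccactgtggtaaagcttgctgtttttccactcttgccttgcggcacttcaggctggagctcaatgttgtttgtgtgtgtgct
Ccl22: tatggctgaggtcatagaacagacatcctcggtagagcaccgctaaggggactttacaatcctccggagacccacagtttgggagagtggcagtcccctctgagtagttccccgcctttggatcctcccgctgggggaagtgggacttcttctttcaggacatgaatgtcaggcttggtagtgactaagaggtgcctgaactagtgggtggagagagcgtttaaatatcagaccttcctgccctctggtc
Bcl3: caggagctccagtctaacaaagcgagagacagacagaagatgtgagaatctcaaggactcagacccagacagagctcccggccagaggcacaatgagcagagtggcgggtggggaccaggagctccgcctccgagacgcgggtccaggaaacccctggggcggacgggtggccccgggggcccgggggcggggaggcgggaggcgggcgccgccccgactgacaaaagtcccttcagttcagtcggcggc
Nfkb2: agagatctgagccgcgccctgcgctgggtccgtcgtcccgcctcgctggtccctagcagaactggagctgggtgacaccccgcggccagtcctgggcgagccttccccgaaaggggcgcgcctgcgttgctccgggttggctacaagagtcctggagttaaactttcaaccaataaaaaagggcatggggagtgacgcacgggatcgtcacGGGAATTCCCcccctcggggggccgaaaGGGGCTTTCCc
Lad1: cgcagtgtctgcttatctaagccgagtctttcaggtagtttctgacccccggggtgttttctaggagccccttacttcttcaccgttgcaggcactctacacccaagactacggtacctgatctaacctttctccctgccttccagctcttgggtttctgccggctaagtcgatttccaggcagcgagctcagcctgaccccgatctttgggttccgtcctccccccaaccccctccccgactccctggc

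The Ccl1 window held 1 match, on the strand opposite the gene, 195 to 186 bases before the start. The Nfkb2 window held 2 places with a match, one at 39 to 30 bases that reads on both strands and one at 11 to 2 bases before the start. The windows of Traf1, Ccl22, Bcl3 and Lad1 held 0, which says only that these letters are not in these windows. Among genes with a promoter entry, 12 of 121 that rose (9.92%) and 7 of 185 that fell (3.78%) held a match in this window, against 578 of 9859 tested genes (5.86%) and 1293 of 27025 genes in all (4.78%). A match is a description of the sequence and not a measured binding site.

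No costimulatory gene passed in the blocked fit. Of 17 costimulatory and coinhibitory genes tested 0 were called in either direction, which is near the 3.11% of all tested genes. In both experiments 13 were higher and 4 lower, with a median of 0.33 log2. Over all tested genes 37.4% lay above 0 and 70.8% had the same sign in both experiments. Cd40, the receptor for the CD40 ligand of T cells, read 11.17 and 11.01 in solvent and 12.71 and 12.05 with TNF. The arrays did not overlap, at 1.29 ± 0.33 log2 or 2.45-fold (adjusted p = 0.0759). Cd40 passed with only the 4 compared arrays (adjusted p = 0.0366), without the CpG-stimulated groups (0.00366) and with array weights (0.00716). It did not pass with loess (0.0784), with reference scaling (0.082) or without the block (0.449). Cd83, a marker of mature dendritic cells, was at 0.67 ± 0.16 log2 (adjusted p = 0.0657), and Cd70, the ligand of CD27, at 1.19 ± 0.39 (adjusted p = 0.131). Cd83 and Cd70 passed without the CpG-stimulated groups (adjusted p = 0.014 and 0.0253) and with array weights (0.0115 and 0.0274). Neither passed without the block (0.438 and 0.482). Pdcd1lg2, which encodes the coinhibitory ligand PD-L2, was at 0.46 ± 0.14 log2 (adjusted p = 0.1) and passed with loess (0.0442) and with reference scaling (0.0351). It also passed without the CpG-stimulated groups (0.00648) and with array weights (0.0144), but not without the block (0.496). The CD28 ligand genes differed least from solvent: Cd80 was at 0.18 ± 0.23 log2 and Cd86 at -0.03 ± 0.24, a sign that turned under both scalings (0.08 with reference scaling and 0.02 with loess). For both of these the arrays overlapped, and each differed more between experiments than between treatments, with Cd86 at 11.65 and 12.95 in solvent and 11.64 and 12.90 with TNF.

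Among genes of migration and antigen presentation Ccr1 was called, against 3.11% of all tested genes. Ccr7, which encodes the receptor that guides dendritic cells to lymph nodes, read 12.41 and 13.32 in solvent and 13.22 and 13.70 with TNF. The groups overlapped, at 0.59 ± 0.28 log2 (adjusted p = 0.267). Fscn1, which encodes the actin-bundling protein fascin of mature dendritic cells, was at 0.58 ± 0.18 log2 (adjusted p = 0.125). Ccr7 and Fscn1 passed without the CpG-stimulated groups (adjusted p = 0.0164 and 0.0265), and Fscn1 also with array weights (0.0305). Neither passed without the block (0.826 and 0.454). Ccr1, which encodes an inflammatory chemokine receptor, read 12.88 and 12.73 in solvent and 12.41 and 12.40 with TNF. It fell by 0.40 log2 (SE 0.06, adjusted p = 0.015, lost with reference scaling and without the block), the one call among 11 chemokine receptors. Of 11 genes of MHC class II presentation 0 passed (median -0.07 log2, 0.03 with reference scaling), with H2-Aa at -0.06 ± 0.07 and its activator Ciita at -0.20 ± 0.24 log2. Of 15 genes of MHC class I presentation (median 0.07 log2) and of 19 cathepsins and inhibitors (median -0.10, 0.01 with reference scaling) 0 passed as well. Ctsb and Ctsl, the targets of the inhibitors used in the series, were at -0.09 ± 0.08 and -0.19 ± 0.09 log2 (adjusted p = 0.591 and 0.281).

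Cytokine genes and the mediators of T helper polarization gave 3 calls lower and 1 higher, where 1.97% of all tested genes fell and 1.14% rose. Of these calls, Ccl22 is also counted among the chemokines and Mgl2 among the C-type lectins. The median of the 20 cytokines was 0.09 log2. Il12b, which encodes the p40 chain of IL-12 and IL-23, read 9.82 and 11.11 in solvent and 11.38 and 11.92 with TNF. These arrays did not overlap, at 1.18 ± 0.59 log2 (adjusted p = 0.296, 0.0485 with only the 4 compared arrays, 0.00454 without the CpG-stimulated groups and 0.779 without the block). Il6 was at 0.80 ± 0.70 log2, Il1b at 0.55 ± 0.26, Il12a at 0.10 ± 0.17 and Il10 at 0.07 ± 0.18, and none of these 4 passed. Of 20 cytokines tested, Tgfb3 fell by 0.51 log2 (SE 0.08, adjusted p = 0.017) and Tnfsf13b, which encodes the B cell survival factor BAFF, by 0.38 (SE 0.08, adjusted p = 0.0456, lost with both scalings), and 0 rose. The arrays of both genes overlapped, and neither passed without the block. With the mean of its probe sets Tnfsf13b was at -0.18 log2 (adjusted p = 0.088). Of 15 Th1-associated mediators 0 passed at a median of 0.43 log2. Of 19 Th2-associated mediators Ccl22 rose and the lectin gene Mgl2 fell at a median of 0.07, and of 28 type I interferon genes 0 passed at a median of 0.17.

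**Figure D2:**
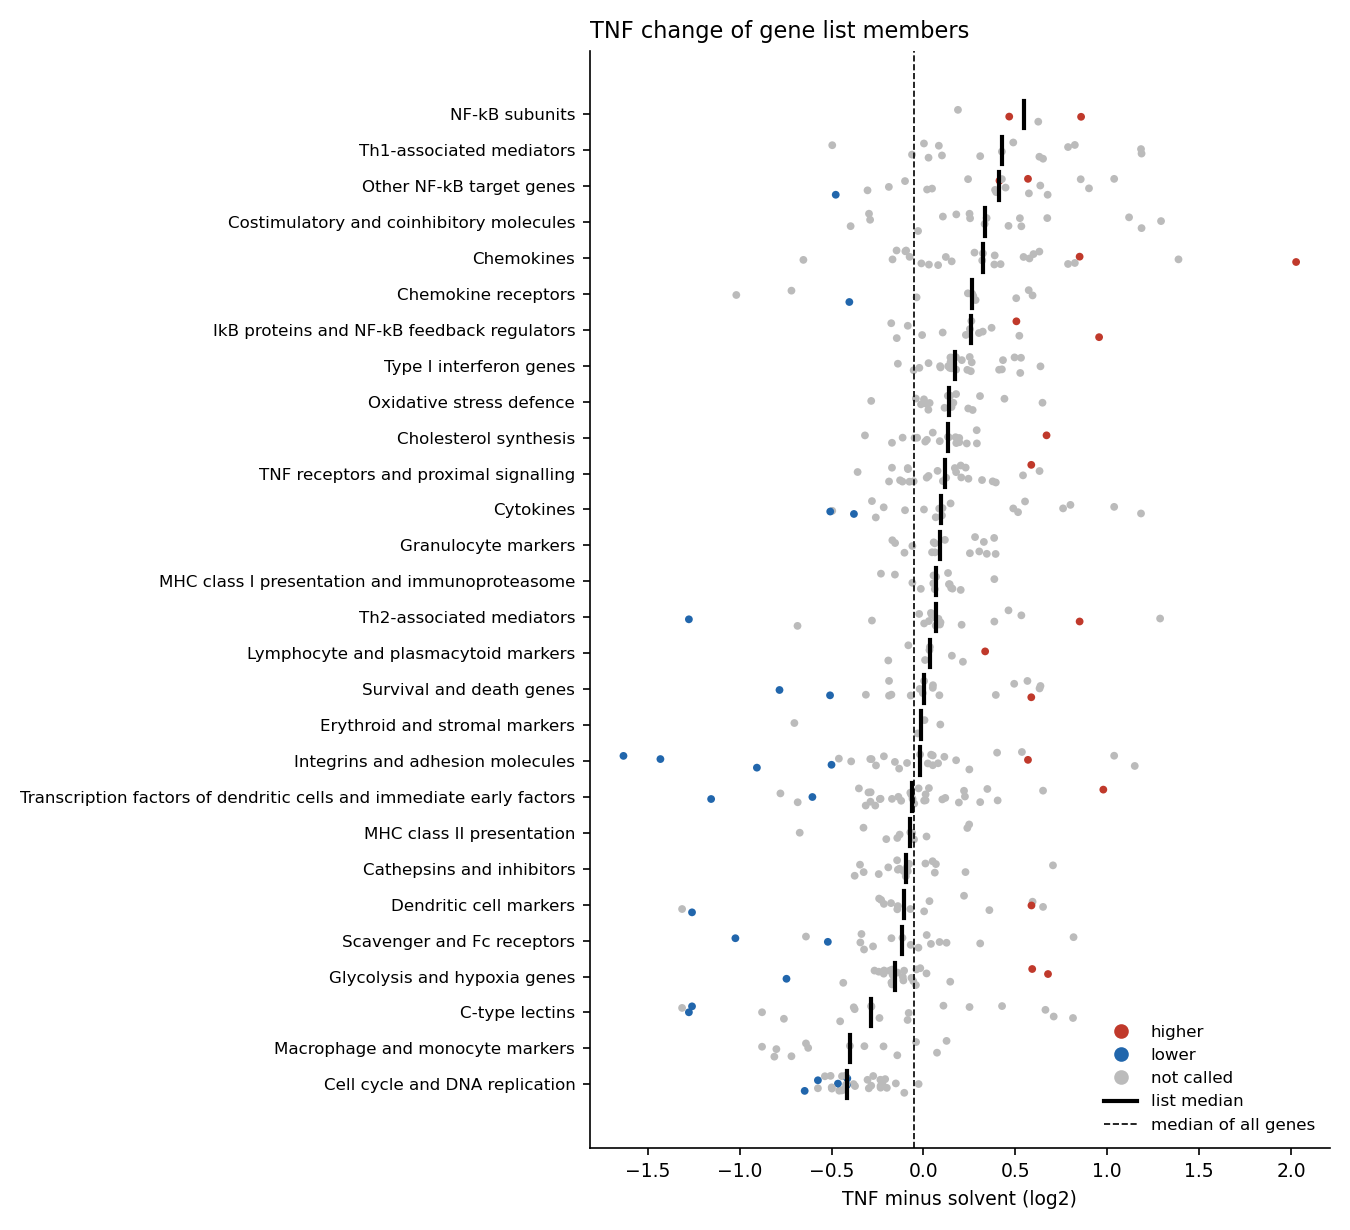
Change with TNF (horizontal axis, log2) of the tested members of 28 gene lists, 1 point per gene. Red points were called higher and blue points lower, black bars are list medians and the dashed line is the median of all tested genes, -0.05. The NF-kB subunits have the highest median (0.55) and the cell cycle genes the lowest (-0.41). The medians of the transcription factor, integrin, MHC class II, cathepsin and erythroid and stromal lists lie below 0 here and turn above 0 with reference scaling.

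Further large rises are given gene by gene. Lad1, which encodes ladinin, a protein of anchoring filaments, read 9.36 and 9.34 in solvent and 11.08 and 10.68 with TNF. The solvent arrays nearly coincided and the TNF arrays stood well above them, by 1.53 ± 0.12 log2 or 2.89-fold (adjusted p = 0.00286, and 0.0089 without the block). It was the one named call that held when the TNF array of experiment 1 was left out. Havcr1, which encodes the phosphatidylserine receptor TIM-1, read 8.08 and 7.57 in solvent and 9.56 and 9.11 with TNF. Its rise of 1.52 ± 0.23 log2 was alike in both experiments (adjusted p = 0.0145, and 0.0957 without the block). Timd4, which encodes the related phosphatidylserine receptor TIM-4, rose by 0.99 ± 0.22 log2 (adjusted p = 0.0496), a call lost with both scalings, without the filter on dim genes and with its probe sets averaged (adjusted p = 0.0535). Nipal1, a magnesium transporter gene, rose by 1.22 ± 0.15 log2 and Cdkn2b, which encodes the cyclin-dependent kinase inhibitor p15, by 1.15 ± 0.23. Akap2, which encodes an anchor of protein kinase A, rose by 1.35 ± 0.25 log2, and Calcrl, which encodes the receptor subunit for adrenomedullin and CGRP, by 0.99 ± 0.11. Further rises near 1 log2 or above were those of 1110032F04Rik (1.38), Nudt17 (1.28), Tmem39a (1.24), Gcsam (1.15) and Strip2 (1.01), with adjusted p from 0.00854 to 0.0291. Of these genes Lad1 and Nipal1 passed without the block. When the probe sets of each gene were averaged, the rise was 1.00 log2 for Havcr1, 0.75 for 1110032F04Rik and 0.41 for Calcrl, each still called.

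Further genes were called in both directions. Cyria, which encodes a protein that binds Rac1, read 11.67 and 11.52 in solvent and 12.64 and 12.60 with TNF. The groups stood apart by 1.02 ± 0.09 log2 or 2.04-fold (adjusted p = 0.00292). Rhoc, a small GTPase gene, rose by 0.96 ± 0.10 log2 (adjusted p = 0.00754) and Marcksl1, which encodes an actin-binding substrate of protein kinase C, by 0.90 ± 0.19 (adjusted p = 0.0397). The GTPase-activating protein genes split: Arhgap31 rose by 0.42 ± 0.09 log2, whereas Arhgap15 fell by 0.78 log2 (SE 0.10) and Arhgap25 by 0.70 (SE 0.14). Cyria, Rhoc and Arhgap15 passed without the block.

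The largest fall was that of the adhesion gene Cdh1. It encodes E-cadherin and read 11.42 and 12.54 in solvent and 9.36 and 11.34 with TNF. The TNF array of experiment 2 lay just below the solvent array of experiment 1, and within each experiment TNF was lower, by 2.06 and 1.20 log2. The mean fell by 1.63 log2 (SE 0.23), or 3.10-fold (adjusted p = 0.0129). Both chains of the integrin that binds E-cadherin fell as well. Itgae, which encodes the alpha E chain, CD103, read 9.74 and 11.36 in solvent and 7.93 and 10.31 with TNF. The arrays of the 2 groups overlapped, since experiment 2 was higher throughout, and the fall within experiments was 1.43 log2 (SE 0.18, adjusted p = 0.00854). Cdh1 and Itgae did not pass without the block (adjusted p = 0.778 and 0.839). Itgb7, which encodes the beta 7 chain, read 10.17 and 10.11 in solvent and 9.27 and 9.20 with TNF. That fall of 0.91 log2 (SE 0.07, adjusted p = 0.00286) passed without the block too (0.0233). Epcam, which encodes an epithelial adhesion molecule also found on Langerhans-type cells, fell by 0.50 log2 (SE 0.10, adjusted p = 0.0373, lost with reference scaling, and -0.23 with an adjusted p of 0.0706 for the mean of its probe sets). Of 27 integrins and adhesion molecules 1 rose, Icam1, and 4 fell, against 1.14% and 1.97% of all tested genes. Their median of -0.02 log2 was 0.01 with loess and 0.09 with reference scaling.

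Surface receptors for uptake of glycans and antibody were among the genes that fell. Mgl2, which encodes the galactose-type C-type lectin CD301b, read 12.56 and 12.36 in solvent and 11.02 and 11.34 with TNF. It fell by 1.28 log2 (SE 0.17) or 2.42-fold (adjusted p = 0.0095, and 0.0348 without the block). Clec10a, which encodes the related lectin CD301a, read 10.47 and 9.75 in solvent and 8.85 on both TNF arrays. That fall was 1.26 log2 (SE 0.23, adjusted p = 0.0253, and 0.235 without the block). Cd209a, a DC-SIGN gene, was at -1.31 ± 0.36 log2 without passing (adjusted p = 0.0851). Of 19 C-type lectins 0 rose and 2 fell at a median of -0.28 log2, where 1.97% of all tested genes fell. Fcgrt, which encodes the neonatal Fc receptor, read 10.47 and 9.89 in solvent and 9.12 and 9.19 with TNF, a fall of 1.02 log2 (SE 0.17, adjusted p = 0.0184). Fcgr3, which encodes a low-affinity Fc gamma receptor, fell by 0.52 log2 (SE 0.10, adjusted p = 0.0278), and the 17 scavenger and Fc receptors had a median of -0.11. Neither Fc receptor gene passed without the block. Macrophage and monocyte markers lay low beside these falls: of 13 tested 0 passed, 10 were lower in both experiments and the median was -0.40 log2, with Mrc1 at -0.88 ± 0.24 and Csf1r at -0.22 ± 0.10. Their part in the falls of lectin and Fc receptor genes was not tested.

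**Figure D3:**
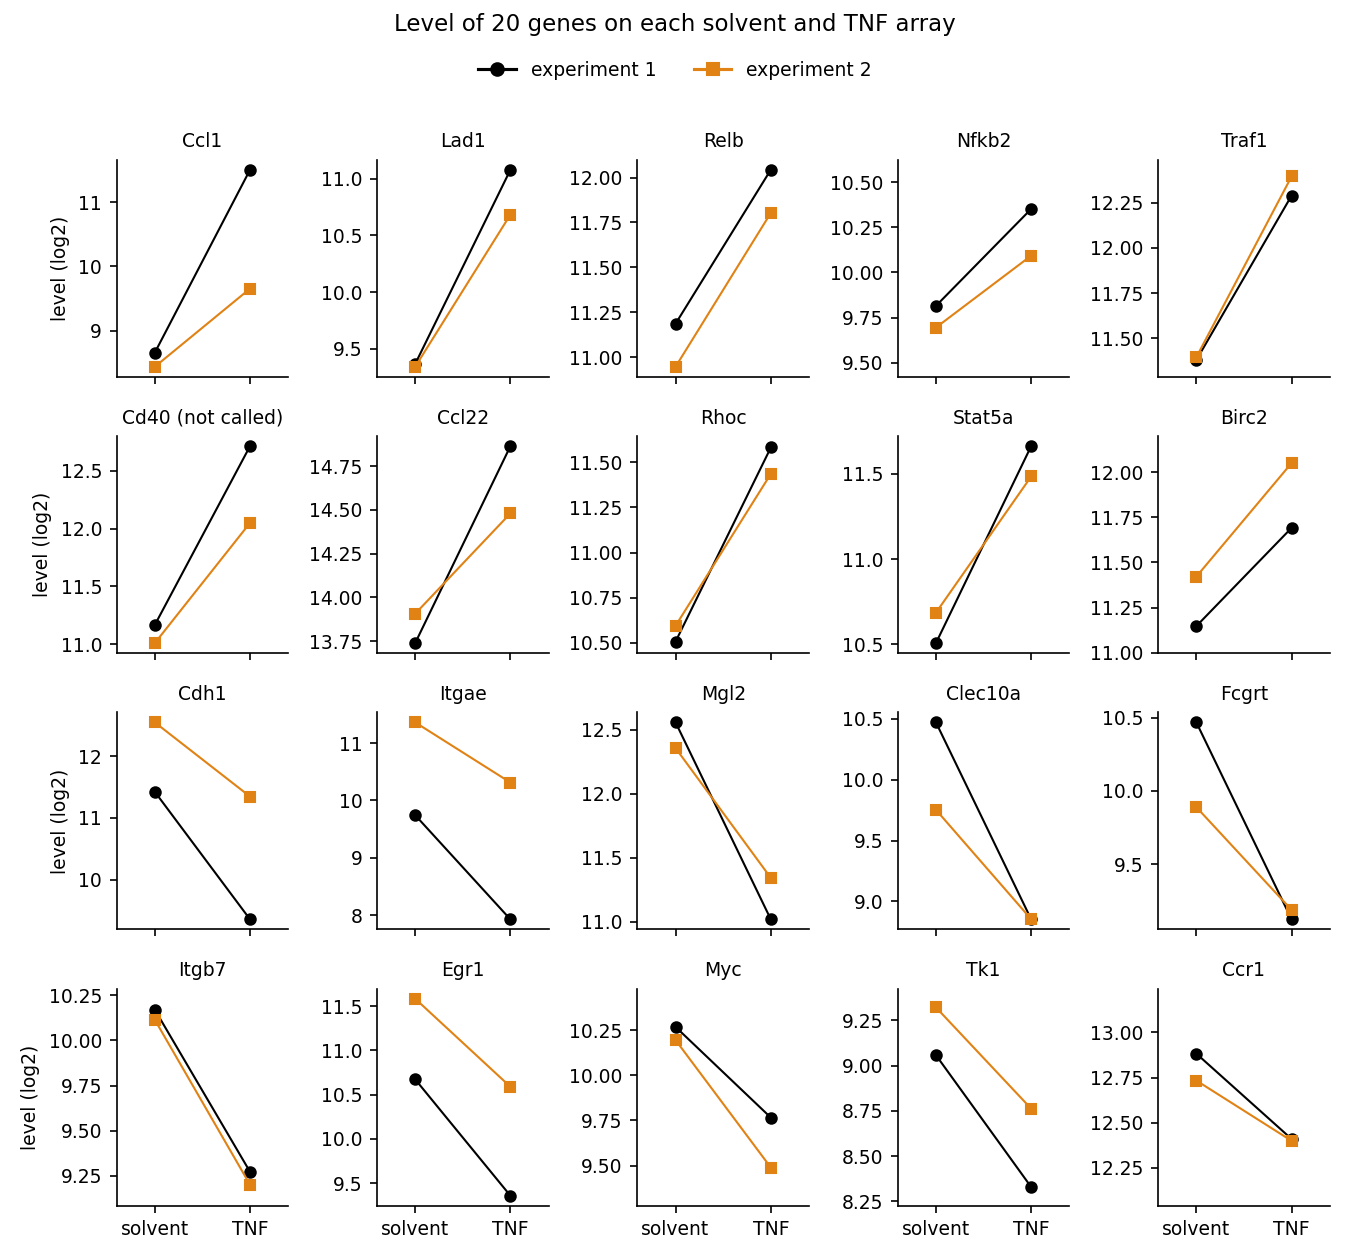
Level (vertical axis, log2 RMA value) of 20 genes on the solvent and TNF arrays, joined by a line within experiment 1 (black circles) and experiment 2 (orange squares). Each panel has its own vertical range, which does not start at 0. The 10 genes of the upper rows are higher with TNF and the 10 of the lower rows are lower, in both experiments. Cd40 is shown although it was not called. Itgae and Cdh1 show a gap between experiments about as wide as the change with TNF.

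Transcription factor genes gave 3 calls in 34 tested, where 3.11% of all tested genes were called. Stat5a, which encodes a factor activated by granulocyte-macrophage colony-stimulating factor, read 10.51 and 10.68 in solvent and 11.66 and 11.49 with TNF. It rose by 0.98 ± 0.14 log2 or 1.97-fold (adjusted p = 0.0138, and 0.0584 without the block). The immediate early gene Egr1 read 10.67 and 11.58 in solvent and 9.36 and 10.59 with TNF, a fall of 1.16 log2 (SE 0.22, adjusted p = 0.0314). Both experiments gave the fall, which lost its call with reference scaling and without the block. Myc, which drives growth and division, read 10.27 and 10.20 in solvent and 9.77 and 9.49 with TNF, a fall of 0.60 log2 (SE 0.10, adjusted p = 0.0188, and 0.285 without the block).

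Further falls above 2-fold included those of Slc9a9, Klk1b27, Gpr34, Lifr, Ptpn22 and Emp1. Slc9a9, which encodes an endosomal sodium-proton exchanger, fell by 1.32 log2 (SE 0.23, adjusted p = 0.0218), from 9.06 and 9.73 to 7.31 and 8.83. Gpr34, which encodes a lysophosphatidylserine receptor, fell by 1.16 log2 (SE 0.22), Lifr, which encodes the leukaemia inhibitory factor receptor, by 1.15 (SE 0.17), and the phosphatase gene Ptpn22 by 1.11 (SE 0.23). Klk1b27, a kallikrein gene, fell by 1.22 log2 (SE 0.18) and Emp1, which encodes an epithelial membrane protein, by 1.09 (SE 0.17). Of these 6 genes 0 passed without the block. When the probe sets of each gene were averaged, the change was -0.39 log2 for Slc9a9, -0.63 for Lifr and -0.52 for Emp1, each still called.

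Genes of division lay lower with TNF, on a background in which falls were the more common change. Of all tested genes 37.4% lay above 0, 70.8% had the same sign in both experiments and 1.97% were called lower. All 31 tested genes of cell cycle and DNA replication lay below 0, 30 of them in both experiments, with a median of -0.41 log2 that was -0.33 with loess and -0.31 with reference scaling, and 5 were called lower. Tk1, which encodes thymidine kinase, read 9.06 and 9.32 in solvent and 8.33 and 8.76 with TNF. It fell by 0.65 log2 (SE 0.09) or 1.56-fold (adjusted p = 0.0131). Cdt1, which licenses replication origins, fell by 0.57 log2 (SE 0.10, adjusted p = 0.0202), the helicase subunit gene Mcm6 by 0.47 (SE 0.10, adjusted p = 0.0486), Rrm2 by 0.42 (SE 0.09, adjusted p = 0.0401) and Cdk1, the mitotic kinase gene, by 0.41 (SE 0.08, adjusted p = 0.0266). None of the 5 passed without the block, Mcm6 was lost with both scalings and Cdt1 with reference scaling. When the probe sets of each gene were averaged, Cdt1 was at -0.33 log2 (adjusted p = 0.0816) and Mcm6 at -0.30 (0.151). Mki67, which marks dividing cells, was at -0.38 ± 0.13 log2 (adjusted p = 0.15).

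Of 26 glycolysis and hypoxia genes 2 rose and 1 fell, and of 19 survival and death genes 1 rose and 2 fell. Over all tested genes 1.14% rose and 1.97% fell. Pfkfb3, which encodes an activator of glycolysis, read 10.71 and 11.10 in solvent and 11.36 and 11.80 with TNF, a rise of 0.68 ± 0.09 log2 (adjusted p = 0.0105). The glucose transporter gene Slc2a6 rose by 0.59 ± 0.11 log2 with overlapping arrays (adjusted p = 0.0284), and Pgm2l1, which encodes a glucose-1,6-bisphosphate synthase, fell by 0.75 (SE 0.09, adjusted p = 0.00854). The median of the glycolysis and hypoxia list was -0.15 log2, and with the mean of its probe sets the rise of Pfkfb3 was 0.44. Idi1, an isomerase gene of the isoprenoid pathway, rose by 0.67 ± 0.09 log2 (adjusted p = 0.0126) as 1 of 19 genes of cholesterol synthesis. The apoptosis genes Casp6 and Bid fell by 0.78 (SE 0.16) and 0.51 log2 (SE 0.11), with adjusted p of 0.041 and 0.0436. When a gene's probe sets were averaged they were at -0.45 (adjusted p = 0.0563) and -0.26 (0.105). Of 18 genes of oxidative stress defence 0 passed, at a median of 0.14 log2. Of these genes Pgm2l1 passed without the block, and Bid was lost with both scalings.

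Among cell type markers 3 genes were called, where 3.11% of all tested genes were. The tested markers were 16 of dendritic cells, 13 of macrophages and monocytes, 16 of granulocytes, 8 lymphocyte and plasmacytoid and 4 erythroid and stromal. Btla, which encodes an inhibitory receptor of lymphocytes and dendritic cells, rose by 0.59 ± 0.10 log2 with overlapping arrays (adjusted p = 0.0184). Clec10a fell, as above, and the 16 dendritic cell markers had a median of -0.10 log2. Ccr9, which encodes a gut-homing chemokine receptor of plasmacytoid cells and lymphocytes, rose by 0.34 ± 0.07 log2 from a level near the overall median (adjusted p = 0.0328), as 1 of 8 markers in its list. Btla and Ccr9 did not pass without the block. Granulocyte markers had a median of 0.09 log2 with 0 of 16 called.

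Cells given CA074Me before TNF showed the same measure on 4 arrays that the solvent comparison did not use, from the same 2 experiments and with a spread pooled in the same model. Against CA074Me alone, 1355 genes (11.1%) changed, 605 (4.97%) higher and 750 (6.16%) lower. Of the 139 genes that rose in solvent-treated cells 136 (97.8%) rose here, and of the 240 that fell 215 (89.6%) fell here. As a share of the calls after CA074Me these are 22.5% of the rises and 28.7% of the falls. Of the 379 genes 377 had the same sign and 0 were called in the opposite direction. The median change of the 139 was 0.58 log2 in solvent and 0.78 after CA074Me, and that of the 240 was -0.53 and -0.60. Without the block 159 genes passed after CA074Me, and leaving out 1 of its arrays left between 235 and 830, the lowest without the CA074Me array of experiment 1 or the CA074Me plus TNF array of experiment 2.

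Several genes that had not passed in solvent passed in these arrays. Gained calls were general, since 1355 genes were called here against 379 in solvent, 4.97% of tested genes higher and 6.16% lower. Cd40 rose by 1.87 log2 after CA074Me (adjusted p = 0.0102), Cd70 by 1.87 (0.0177), Cd83 by 0.91 (0.0106) and Pdcd1lg2 by 0.65 (0.0185), and of 17 costimulatory and coinhibitory genes 8 rose and 1 fell. Nfkbia rose by 0.41 log2 (adjusted p = 0.00572), Tnfaip3 by 1.05 (0.0121), Rel by 0.86 (0.0256) and Rela by 0.39 (0.00492). Tnfrsf1a (-0.33 log2), Fscn1 (0.61), Cd80 (0.32), Cd86 (0.04), Ccr7 (0.68) and Il12b (1.32) did not pass there either. Of 31 cell cycle genes 15 fell after CA074Me, at a median of -0.42 log2. Ccl1 rose by 2.82 log2 and Relb by 1.24, Cdh1 fell by 2.03 and Itgae by 1.78. Pik3cd, which encodes a lymphoid phosphoinositide 3-kinase, and the actin gene Acta1 were the 2 of 379 with the opposite sign, at 0.36 and 0.31 log2 in solvent and -0.13 and -0.02 after CA074Me.

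The difference between the 2 settings was tested directly, and it passed for 0 genes (0%). In limma 303 of the 12172 genes had an unadjusted p under 0.05 for the interaction (80 without the block), with a median 95% confidence interval of 0.287 log2 to either side. More calls after CA074Me than in solvent therefore do not show a larger response. For Ccl1 the rises of 2.03 and 2.82 log2 differed by 0.79, with a 95% confidence interval of 1.21 to either side. For Relb those of 0.86 and 1.24 differed by 0.38, with an interval of 0.23 to either side (adjusted p = 1 for both). These intervals are not adjusted for the number of genes tested.

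**Figure D4:**
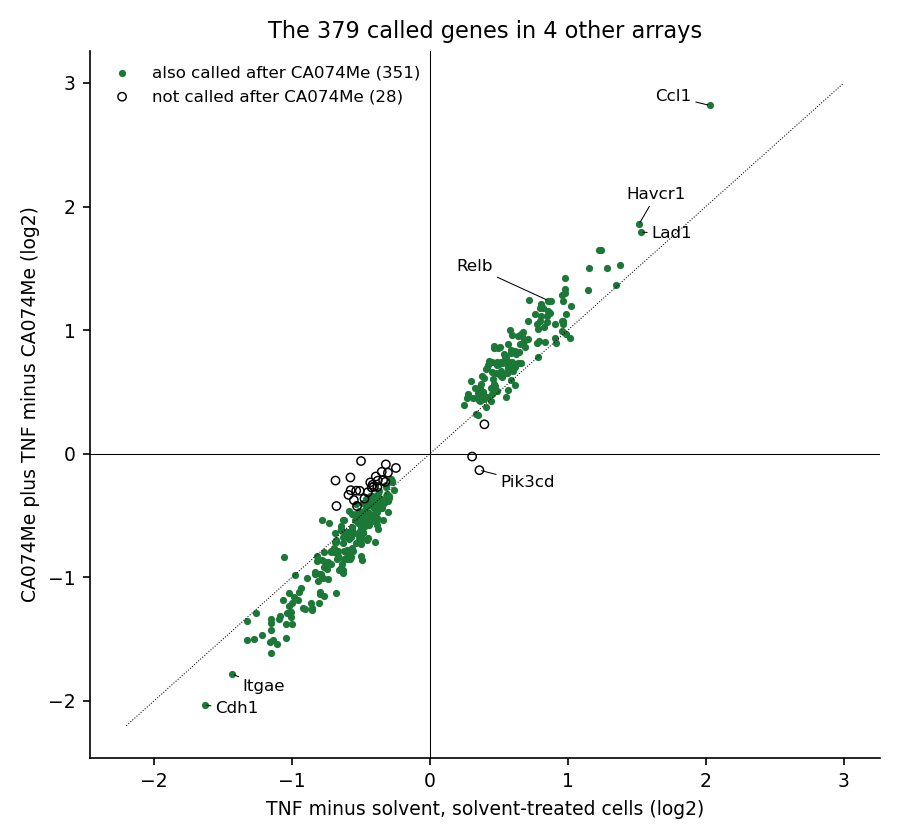
Change with TNF of the 379 called genes in solvent-treated cells (horizontal axis) and in CA074Me-treated cells (vertical axis), both in log2 units, with the line of equal change dotted. Green points are the 351 genes also called after CA074Me and open circles the 28 that were not. The points lie along the line, and Pik3cd is one of 2 genes with the opposite sign.

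Solvent-treated cells given CpG were compared with those given TNF directly, since both stimuli share their solvent arrays. The contrast called 53 genes (0.435%), 11 (0.0904%) higher and 42 (0.345%) lower with TNF, and 1 without the block. Gpr31b, which encodes a G protein-coupled receptor, was lower with TNF than with CpG (-3.36 ± 0.44 log2, adjusted p = 0.0255). It read 7.30 and 7.71 in solvent and 7.20 and 7.85 with TNF, so the groups overlapped. Nfkbiz, which encodes the inducible nuclear IkB protein IkB zeta, was at -2.19 ± 0.27 log2 (adjusted p = 0.018), and Stap1, an adaptor gene, at -1.73 ± 0.14 (0.0031). Against solvent, TNF left Nfkbiz at 0.32 ± 0.27 log2 and Stap1 at -0.34 ± 0.14, and neither passed. Zfp811 was the fifth of the largest at -1.41 log2.

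Among the 379 genes 10 differed between TNF and CpG. Ccl1 was below its CpG level (-2.51 ± 0.38 log2, adjusted p = 0.0386), and its change against solvent was 2.03 log2 with TNF and 4.54 with CpG. Lad1 was at 1.53 and 2.34 log2 against solvent, a difference of -0.81 ± 0.12 (adjusted p = 0.0386). Arpin, which encodes an inhibitor of the Arp2/3 actin nucleator, was higher with TNF by 0.70 ± 0.11 log2 (adjusted p = 0.0386), at 0.83 against solvent with TNF and 0.14 with CpG. Epcam fell by 0.50 log2 with TNF and by 1.13 with CpG, and Rrm2 by 0.42 and 1.02. Cass4, an adaptor of focal adhesions, had the largest difference in favour of TNF, at 1.15 ± 0.14 log2 (adjusted p = 0.018), with -0.17 against solvent with TNF and -1.32 with CpG. Emp2 was at 0.88 ± 0.12 log2 and the DNA methyltransferase gene Dnmt3a at 0.62 in the same direction. For the remaining named TNF genes, among them Relb (0.86 log2 with TNF and 0.94 with CpG), Mgl2 (-1.28 and -1.36) and Havcr1 (1.52 and 0.76), no difference between the stimuli passed. The 95% confidence interval of that difference reached 0.17 log2 to either side of -0.08 for Relb, 0.38 of 0.08 for Mgl2 and 0.51 of 0.76 for Havcr1, so these tests do not show that the stimuli act alike.

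**Figure D5:**
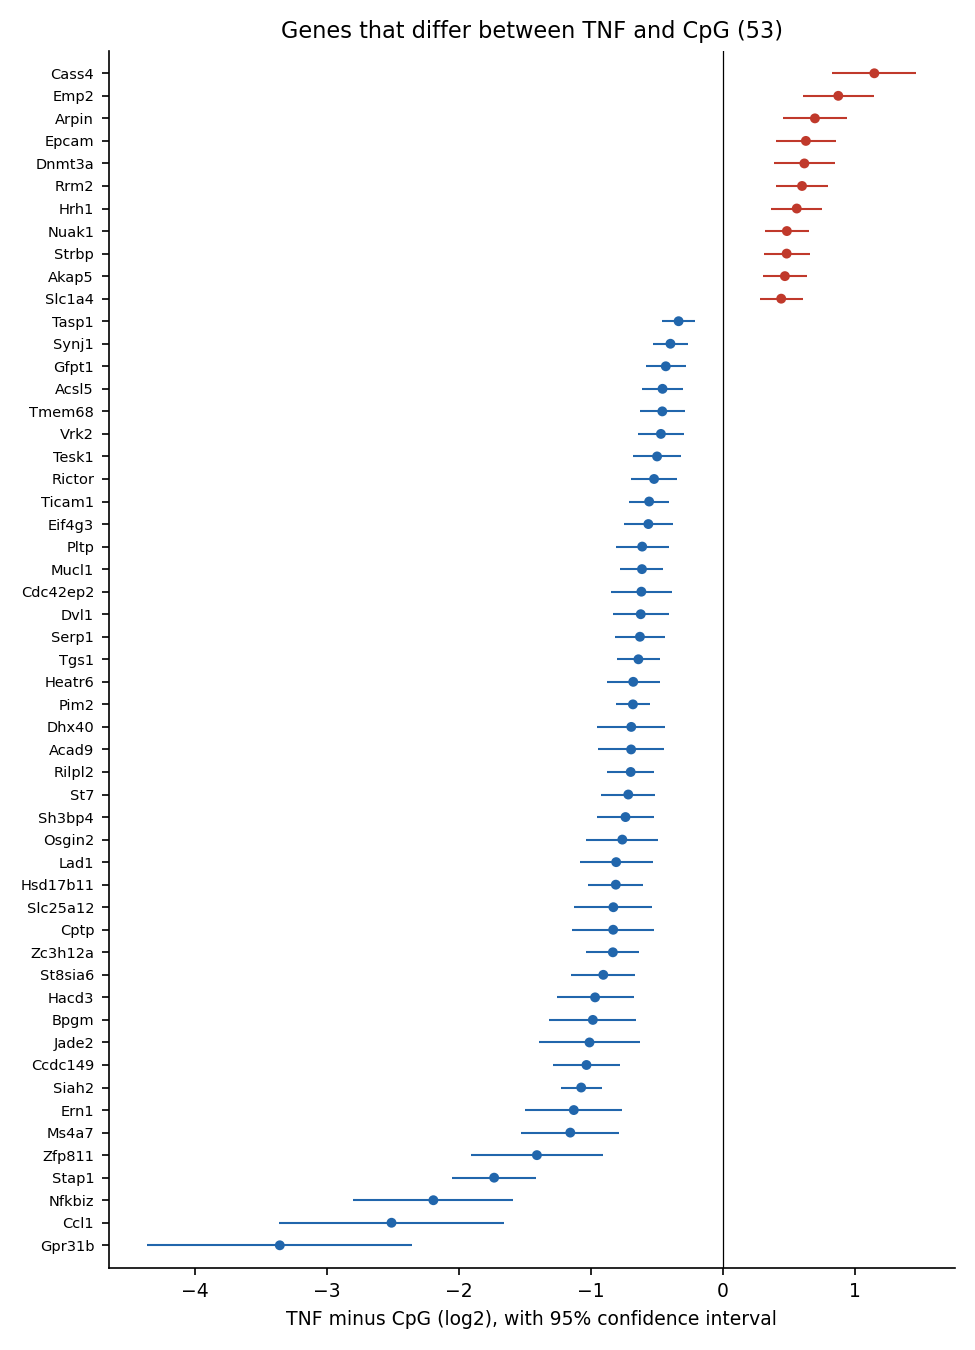
Difference between TNF and CpG in solvent-treated cells (horizontal axis, log2) for the 53 genes called in the direct contrast, 1 row per gene, with 95% confidence intervals. The 11 red points are higher with TNF and the 42 blue points lower. Gpr31b (-3.36), Ccl1 (-2.51) and Nfkbiz (-2.19) lie furthest below 0 and Cass4 (1.15) furthest above it.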

How the data were processed

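RNA of 14 cultures was hybridised to Affymetrix mouse genome arrays from 100 ng, per the labels' protocols. The deposited log2 values were made by the authors with RMA in R 3.0.1, per the submitters' processing notes, for 45101 probe sets. RMA corrects background, normalises quantiles and summarises probes, so every array has nearly the same distribution, and a shift common to most genes is removed. Array medians were 7.49 to 7.54 log2. Which RMA settings were used is not stated in the labels.

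The platform annotation gave 34945 probe sets 1 gene, 932 several and 9160 none. Each of 18193 genes was represented by its brightest probe set. The tests covered the 12172 genes that exceeded the overall median of 7.52 log2 on 2 arrays or more. A limma model (version 3.58.1, R 4.3.3) held all 14 arrays, their 7 groups and the experiment as a block, which left 6 residual degrees of freedom. Tests were two-sided with moderated standard errors, and p was adjusted by Benjamini-Hochberg over all tested genes. Over 21 pairs of groups the replicate difference correlated with r from 0.455 to 0.935 (0.788 for TNF with solvent), and the design text names 2 independent experiments, so the numbers were taken to pair the arrays. Nothing says more about how the cultures were separated, so p-values measure the spread between these arrays, whose number limits the precision: the median 95% confidence interval was 0.203 log2 to either side.

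Members and gene lists were chosen with earlier results of these data known. Named genes are the 14 largest rises and 10 largest falls without overlap between groups, the 3 largest calls of each list (otherwise 2 members as values), markers of TNF signalling and maturation fixed by name, and the 5 largest differences each way from CpG. Other list members in the text were chosen after their values were seen. Alternatives were no block, fewer groups, other filters, probe set rules, scalings and priors, array weights and leaving out each array. The fit was tested on simulated data. The summary of 1 gene list is not reported here.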

Additional observations from a re-analysis of the deposited data

Results flagged for a closer look

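Ciita, the activator of MHC class II genes, moved down with TNF in both solvent experiments (-0.37 and -0.03 log2) and up in both CA074Me experiments (0.01 and 0.14). The difference of 0.27 ± 0.33 log2 did not pass (limma adjusted p = 1). Ctsb, the gene of cathepsin B, did likewise, at -0.09 and -0.08 log2 in solvent and 0.04 and 0.06 after CA074Me, and the difference of 0.13 ± 0.12 did not pass either (limma adjusted p = 1). The fall of Ctsb in solvent depended on scaling, since its mean change there was 0.02 log2 with reference-gene scaling. Outside the named genes, 19 of 3034 probe sets without a single named gene changed with TNF, 4 higher and 15 lower. That is 0.626% of them, against 1.71% of all 24425 probe sets tested.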

How the results depend on the processing

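The count of 379 genes changed with TNF was 14 without the replicate block, 0 with only the 3 solvent groups, 2179 without the CpG-stimulated groups, 252 with reference-gene scaling and 1935 with array weights, and leaving out 1 array gave 0 to 198. It stayed within 1.5 times (333 to 417) with only the 4 compared arrays, other filters, other probe set rules, cyclic loess and the trended prior. After CA074Me the 1355 became 159 without the block, 2651 with array weights and 235 to 830 without 1 array. The 53 differences from CpG became 1 without the block and 2 with array weights. The interaction gave 0 in limma under no block, no filter and array weights too (80, 495 and 676 at an unadjusted p under 0.05). Of 57 named genes called with TNF, 8 passed without the block (Lad1, Nipal1, Cyria, Mgl2, Relb, Rhoc, Itgb7 and Pgm2l1), and the other 49 had limma adjusted p from 0.0583 to 0.878. With loess 53 kept the call, with reference scaling 47, without the TNF array of experiment 2 34, without that of experiment 1 only Lad1, and without either solvent array 0. None of the 57 changed sign under these settings. Calls were also gained by named genes that had not passed. Without the CpG-stimulated groups these included Tnfrsf1a, Tnfrsf1b, Nfkbia, Nfkbiz, Tnfaip3, Cd40, Cd70, Cd83, Pdcd1lg2, Ccr7, Fscn1, Ccl17, Il12b, H2-DMa, Mrc1 and Stap1. With array weights Tnfrsf1a, Tnfrsf1b, Nfkbia, Tnfaip3, Cd40, Cd70, Cd83, Pdcd1lg2, Fscn1, Ccl17, H2-DMa, Mrc1 and Stap1 were among them. No named gene gained a call without the block. Sign changes arose in genes that had not passed: Cd86 was 0.075 with reference scaling and 0.020 with loess, H2-Aa 0.043 and Ctsb 0.019 with reference scaling. Leaving out 1 array gave ranges of -0.143 to 0.085 for Cd86, -0.015 to 0.149 for Il10, -0.432 to 0.028 for Ciita, -0.222 to 0.268 for Gpr31b and -0.366 to 0.018 for Cass4. The causes were not tested. With 2 arrays per group, dim genes and changes under about 0.2 log2 were at the limit of what could be resolved.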

Other observations

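Several genes of G protein signalling and of receptors for lipid mediators and amines were among the 240 that fell. They were picked after their values were seen. Tested genes of this kind were not counted, so no share can be set beside the 1.97% of all tested genes that fell. The receptor gene Calcrl went the other way, at 0.99 log2. Ptger3, which encodes a prostaglandin E2 receptor, read 9.30 and 9.31 in solvent and 8.31 and 8.59 with TNF, a fall of 0.85 log2 (SE 0.18, limma adjusted p = 0.0401). Cysltr1, the cysteinyl leukotriene receptor gene, fell by 0.80 log2 (SE 0.16, adjusted p = 0.0353), the adenosine receptor gene Adora3 by 0.74 (SE 0.11, adjusted p = 0.0145) and the histamine receptor gene Hrh1 by 0.60 (SE 0.09, adjusted p = 0.0129). Downstream of such receptors, the G protein subunit gene Gna15 fell by 0.72 log2, the regulator gene Rgs2 by 0.66 and the adenylate cyclase gene Adcy7 by 0.63. All 7 fell again after CA074Me, by 0.79 to 1.25 log2, and none passed without the block. The repeat is not particular to them, since all 240 kept their sign after CA074Me and 89.6% were called lower there.

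Other calls, also picked after their values were seen, lay in innate sensing and in lineage genes. Tlr1, which pairs with TLR2 to sense lipoproteins, rose from 8.27 and 8.68 to 9.44 and 9.27, by 0.88 ± 0.16 log2 (limma adjusted p = 0.0234), whereas Tlr4, the lipopolysaccharide receptor gene, fell by 0.37 (SE 0.08, adjusted p = 0.0455). Prdm1, which encodes the repressor Blimp-1, rose by 0.72 ± 0.11 log2 (adjusted p = 0.015). Cd34, a progenitor marker, read 9.44 and 10.28 in solvent and 8.12 and 9.43 with TNF, a fall of 1.09 log2 (SE 0.16, adjusted p = 0.0145). The transcription factor genes Mef2c and Runx1 fell by 1.02 and 0.57 log2, the TGF-beta receptor gene Tgfbr2 by 0.68, the decoy receptor gene Il1r2 by 0.98 and the maintenance DNA methyltransferase gene Dnmt1 by 0.64. None of these 9 genes passed without the block.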
